A study of Mus musculus with 6 samples.

Results

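The protein-coding genes of respiratory complexes II to V and of cytochrome c were described in natural killer (NK) cells of the mouse liver. Members were taken by symbol: Sdha, Sdhb, Sdhc, Sdhd, Cyc1, Cycs, and every symbol that starts with Uqcr, Cox4, Cox5, Cox6, Cox7, Cox8, Atp5, mt-Co, mt-Cytb or mt-Atp. This gave 57 of 55414 genes in the table, of which 4 belong to complex II, 10 to complex III, 22 to complex IV and 20 to complex V, with Cycs counted apart. Of the 57, 51 are nuclear and 6 are encoded by mitochondrial DNA. Both groups came from wild-type (WT) mice and were labelled day 3: 3 control libraries from mice given phosphate-buffered saline (PBS), and 3 libraries from mice given metformin, a glucose-lowering biguanide, at 200 mg per kg for 3 days. The sex and age of the mice, the isolation of the cells and the number of mice behind a library are not given in the sources used here, so that p-values here reflect the variation among these 6 libraries alone, and this variation may be technical.

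The 4 complexes are the part of oxidative phosphorylation downstream of complex I, the respiratory complex that metformin is best known to inhibit. Complex II passes electrons from succinate to ubiquinone, complex III passes them from ubiquinol to cytochrome c, complex IV passes them from cytochrome c to oxygen, and complex V uses the proton gradient that complexes III and IV help to build to make ATP. Resting NK cells draw much of their ATP from this chain, and mitochondrial and nuclear genes must be expressed together for complexes III, IV and V, while complex II is made of nuclear products alone.

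All 10 NK cell markers examined were present in each library, with a summed level of 14432 to 15422 CPM (reads relative to the size of the library) in the PBS and 14656 to 17414 in the metformin libraries. The single markers went different ways. Klrb1c, Nkg7 and Klre1 were higher in every metformin library than in every PBS library, as were 9.49% of all genes tested. For Klre1 the highest PBS library had 468.2 CPM and the lowest metformin library 468.7. Eomes, Itga2, Prf1 and Tbx21 were lower in every metformin library (9.63% of all genes tested), and Ncr1, Klrd1 and Gzma overlapped. Klrb1c had 1720, 1887 and 1833 CPM in the PBS against 1909, 2115 and 2268 in the metformin libraries. Eomes and Itga2 are markers of conventional NK cells. Eomes had 312, 342 and 329 CPM against 216, 212 and 208, and Itga2 169, 197 and 188 against 117, 154 and 86.4. The 7 T cell markers summed to 43.7 to 113 CPM in the PBS and 108 to 272 in the metformin libraries (two-sided exact permutation p = 0.2), and the 5 striated muscle markers to 2.13 to 4.38 CPM over all 6. The PBS libraries held 24838302 to 30161214 estimated reads and the metformin libraries 22152167 to 24266803, with no overlap. Metformin library 3 stood apart: 0.720% of its reads came from mitochondrial genes against 0.429% to 0.515% in the other 5, and its 10 hepatocyte markers summed to 592 CPM against 219 to 324. The 6 markers of type 1 innate lymphoid cells, a related liver population, summed to 758 to 874 CPM in the PBS libraries and 1195 to 1284 in the metformin libraries, and the 6 Kupffer cell markers to 3.68 to 12.03 and 16.5 to 44.0 CPM (two-sided exact permutation p = 0.1 for both lists and for the number of reads, the smallest that 3 against 3 can give). Each of the 6 innate lymphoid cell markers was higher in every metformin library than in every PBS library. Among the Kupffer cell markers the groups did not overlap for Adgre1 (2.50, 7.02 and 6.16 against 11.4, 11.1 and 14.7 CPM) and Marco. They overlapped for Clec4f, Timd4, Vsig4 and Cd5l. No list had a marker at 0 in all libraries, and the part of any of these lists or of depth in the differences below was not tested.

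Levels of different genes were compared in TPM, the authors' values per unit of transcript length with the same total in every library. Summed TPM was lowest for complex II, followed by III, V and IV. The PBS libraries held 779 ± 37.4 TPM (SD, n = 3) for complex II, 3570.0 ± 111 for complex III, 9544 ± 638 for complex V and 10139.5 ± 301 for complex IV. In the metformin libraries the sums were 738 ± 11.9, 3793 ± 400.1, 10084 ± 1012 and 10924 ± 1418 TPM. For each of the 4 complexes the ranges of the PBS and metformin libraries overlapped.

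Mitochondrially encoded transcripts led the ranking. mt-Co3 averaged 2350.4 TPM over the 6 libraries, mt-Atp6 1888, mt-Co1 1345, mt-Atp8 1211, mt-Cytb 1164 and mt-Co2 963. Among nuclear members Cox8a (1072 TPM), Atp5b (956), Cox6a1 (874) and Cox4i1 (728) were highest. The accessory chains of complex III lay together, from 285 TPM for Uqcrq to 449 for Uqcrb, above its nuclear catalytic chains Cyc1 (164) and Uqcrfs1 (117). In complex II, Sdhb (275 TPM), Sdha (222) and Sdhd (179.9) exceeded Sdhc (81.7), while Cycs stood at 59.4.

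**Figure D1:**
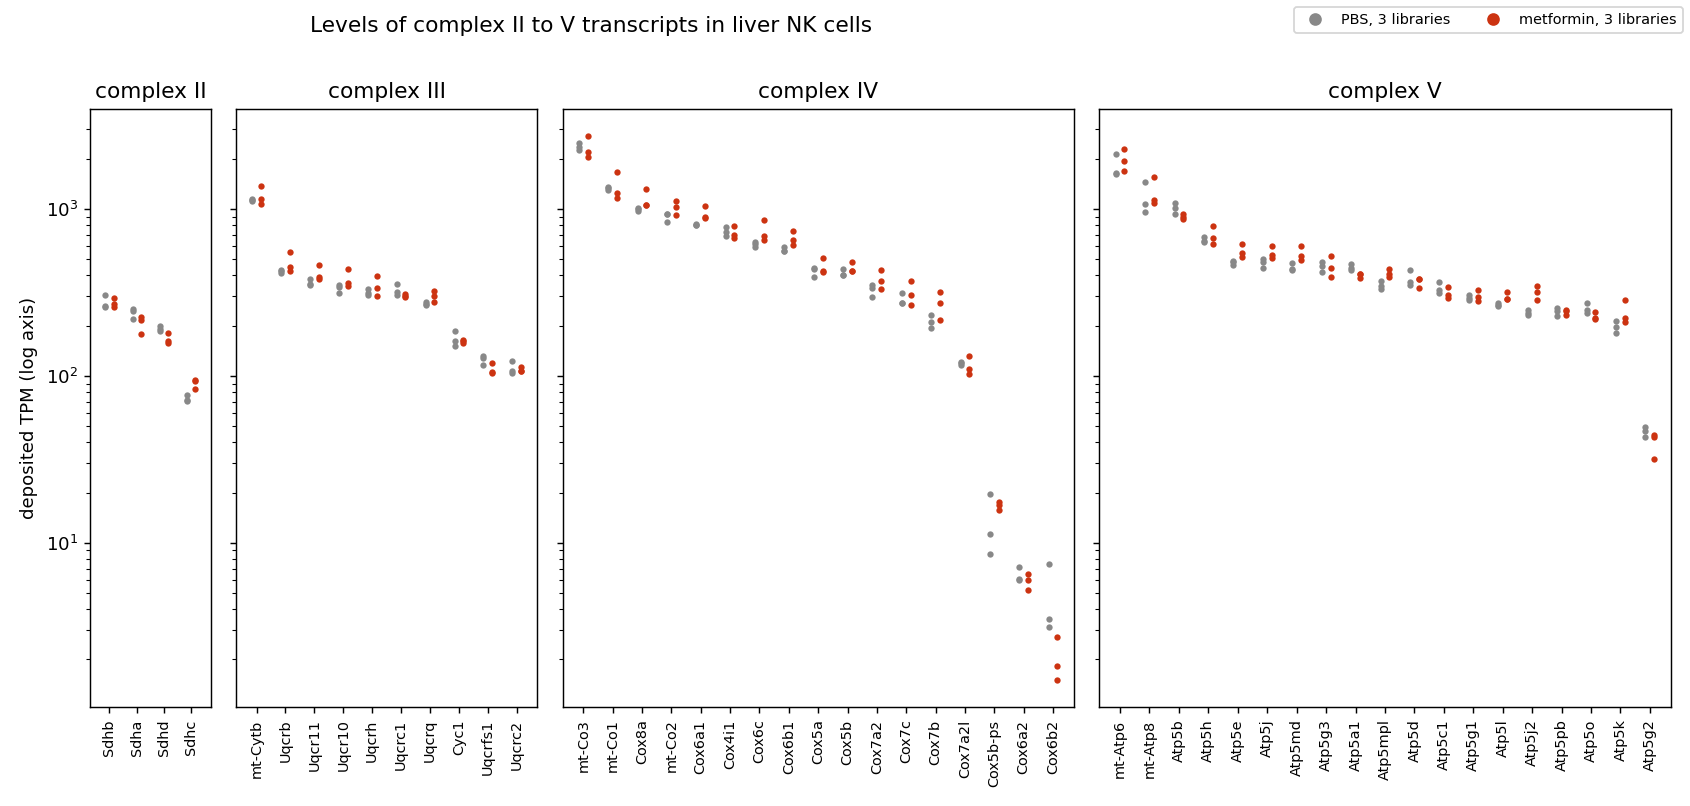
Deposited TPM (log axis) of each tested member in each library, by complex and ordered by mean, with PBS libraries in grey and metformin libraries in red. Among the genes plotted, mt-Co3 (2350.4 TPM on average) stands at the top and Cox6b2 (3.36 TPM) at the bottom.

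Where a subunit has forms for different tissues, the general form was the higher one in TPM. Cox6a1 averaged 874 TPM against 6.15 for Cox6a2, the heart and muscle form, and Cox6b1 averaged 618 against 3.36 for Cox6b2, the testis form. Cox4i2, the form known from lung, had 1 estimated read in PBS library 1 and 0 in the other 5, beside 728 TPM for Cox4i1. Cox7a1, the muscle form, had 5 to 12 reads per library and 2.79 TPM, beside 353 for Cox7a2. Cox7b2, Cox8b, Cox8c and a second entry named Atp5o had 0 reads in all 6 libraries, which allows up to 0.0995 to 0.135 CPM, depending on the library (3 reads of its total, for counting error only). These 6 genes did not pass the filter on low counts, and the other 51 were tested with 15527 genes in all. Of the 3 genes for the c ring of ATP synthase, whose mature protein is the same, Atp5g3 averaged 452 TPM, Atp5g1 297 and Atp5g2 43.1, and the ranges of the 3 over the 6 libraries did not overlap.

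Some nuclear members hold promoter elements that their choice by symbol did not use. RefSeq windows from 250 bases before to 50 after the start (GRCm38.p6) were matched for 37 member genes. GCGCANGCG, the core of the nuclear respiratory factor NRF1 element, was found on either strand in 13 of the 37 (35.1%), against 7.03% of all 27025 genes with such a window. All 13 are among the 34 matched members that passed the filter on low counts (38.2%), against 14.5% of 10284 protein-coding genes that passed it. CCGGAAG, an ETS element that GABP (nuclear respiratory factor 2) binds, was also found in 13 of the 37, against 9.93% of all genes, and these too passed the filter (38.2% against 19.7%). AAGATGGC, the YY1 element, was found in 3 (8.11% against 3.19%, or 8.82% against 5.12% of those that passed). At least 1 of the 3 elements was found in 22 of the 37 members (59.5%), against 17.8% of all genes. All 22 are among the 34 that passed the filter (64.7%), against 33.8% of protein-coding genes that passed it. The windows of the other matched members, that of Atp5b among them, hold none. A match of NRF1 letters on one strand can overlap one on the other strand, and a match describes these letters only. The 4 windows below, from complex II, the carrier and complexes IV and V, were chosen after the values were seen, to show each element. NRF1 matches, CTTCCGG (the reverse complement of the ETS element) and the YY1 match are in capitals.
Sdha, chr13:74350191-74350490, minus strand: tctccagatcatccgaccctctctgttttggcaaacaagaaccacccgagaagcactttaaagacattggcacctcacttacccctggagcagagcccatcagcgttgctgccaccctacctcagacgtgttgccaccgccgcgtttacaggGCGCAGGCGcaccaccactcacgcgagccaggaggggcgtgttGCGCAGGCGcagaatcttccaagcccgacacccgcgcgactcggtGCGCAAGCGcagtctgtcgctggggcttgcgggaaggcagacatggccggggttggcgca
Cycs, chr6:50566520-50566819, minus strand: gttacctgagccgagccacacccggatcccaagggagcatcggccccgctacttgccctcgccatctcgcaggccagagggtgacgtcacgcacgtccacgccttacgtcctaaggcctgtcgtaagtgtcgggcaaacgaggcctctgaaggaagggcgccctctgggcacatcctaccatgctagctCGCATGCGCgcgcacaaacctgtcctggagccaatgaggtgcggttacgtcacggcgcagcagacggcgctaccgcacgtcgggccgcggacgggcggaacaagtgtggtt
Cox6a1, chr5:115348909-115349208, minus strand: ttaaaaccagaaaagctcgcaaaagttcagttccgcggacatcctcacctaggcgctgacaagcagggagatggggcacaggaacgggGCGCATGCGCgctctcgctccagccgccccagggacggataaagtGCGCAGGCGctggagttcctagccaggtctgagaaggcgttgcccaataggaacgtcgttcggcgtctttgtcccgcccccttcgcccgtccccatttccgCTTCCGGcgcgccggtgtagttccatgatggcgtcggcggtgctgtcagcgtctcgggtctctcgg
Atp5j2, chr5:145191492-145191791, minus strand: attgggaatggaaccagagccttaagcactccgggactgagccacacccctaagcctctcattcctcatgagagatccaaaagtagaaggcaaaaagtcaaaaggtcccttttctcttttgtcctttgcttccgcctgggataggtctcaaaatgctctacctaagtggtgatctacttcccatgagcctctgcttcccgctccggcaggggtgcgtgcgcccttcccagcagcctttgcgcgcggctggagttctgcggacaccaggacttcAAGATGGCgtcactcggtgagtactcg
Sdha and Cox6a1 hold 3 NRF1 matches each, some of which overlap in Cox6a1, and Cycs holds 1. Cox6a1 also holds the ETS element, and Atp5j2 holds the YY1 letters just inside its transcript and neither of the other elements.

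Metformin and PBS libraries were then compared gene by gene with edgeR's quasi-likelihood test over all 15527 genes. Small accessory subunits of complexes III, IV and V made up most of the members that were higher in the metformin libraries. Of the subunits that carry out the reactions, mt-Co2 was among those higher at an unadjusted p under 0.05, while Sdha, Sdhb, Cyc1, Uqcrfs1, mt-Cytb, mt-Co1, Atp5a1 and Atp5b were not. No member passed an adjusted p (Benjamini-Hochberg over all genes) of 0.05, nor did any gene of the table (0%). At an unadjusted p under 0.05, 20 of the 51 tested members (39.2%) were higher and 0 lower, against 5.29% of all genes higher and 5.08% lower. The log2 fold changes of the 20 ran from 0.26 for Sdhc to 0.51 for Atp5j2. By complex these were 1 of 4 members in II, 5 of 10 in III, 7 of 17 in IV and 7 of 19 in V. DESeq2 called 2 members at an adjusted p under 0.05, Atp5j2 (0.0237) and Cox6a1 (0.04997), against 1.93% of all genes, and limma-voom called 0 (0% of all genes). In bulk libraries a change in RNA per cell and a change in the cells that make up the sample cannot be told apart.

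All 3 metformin libraries lay above all 3 PBS libraries in CPM for 23 of the 51 (45.1%; 9.49% of all genes), and below them for Cox6b2 alone (9.63% of all genes). The median log2 fold change was 0.041 in complex II, 0.27 in III, 0.30 in IV and 0.22 in V, against 0.23 over all 51 members and 0.0053 over all genes tested. Metformin library 3 was the highest library for 43 of the 51 members, against 29.3% of all genes, and PBS library 3 was the lowest for 29, against 15.5%. Without metformin library 3 the medians were 0.0031, 0.11, 0.15 and 0.045 in complexes II to V, and 16 members were higher and 2 lower (4.9% and 6.51% of all genes). The number higher was 12 without PBS library 2 (3.19% of all genes) and 10 without PBS library 3 (4.08%), with 0 lower in both (3.29% and 4.11%), and without PBS library 3 the median of complex V was 0.11.

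**Figure D2:**
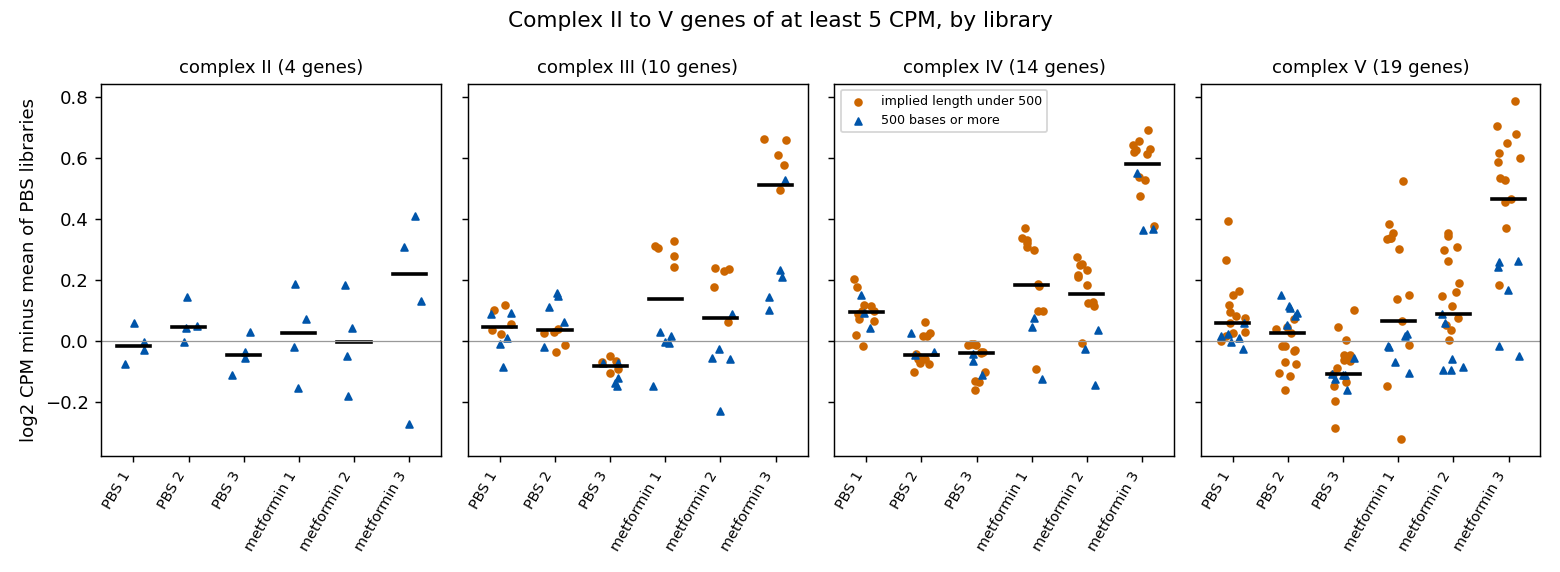
Log2 CPM of each member of at least 5 CPM minus its mean over the PBS libraries, by library; black bars are medians, orange circles genes of implied length (explained with the length results) under 500 bases, blue triangles longer ones. The median of complex IV stood at 0.18, 0.16 and 0.58 in metformin libraries 1, 2 and 3, and that of complex II at 0.026, -0.0028 and 0.22.

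In complex II the 4 genes went different ways. Here and below, levels are given for PBS libraries 1 to 3 and then for metformin libraries 1 to 3, in that order, followed by the log2 fold change of metformin against PBS and its standard error (SE). Sdha, the flavoprotein that oxidises succinate, had 390.0, 425 and 419 CPM in PBS libraries 1 to 3 and 406, 397 and 340.0 in metformin libraries 1 to 3. Metformin library 3, the highest library for most members, was the lowest for Sdha, and the groups overlapped (log2 fold change -0.11, SE 0.10, edgeR adjusted p = 0.715). Sdhb, the iron-sulfur subunit beside it, had 163, 183 and 154 against 175, 171 and 206 CPM, with overlapping groups (0.14, SE 0.11).

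The 2 anchors that hold the enzyme in the inner membrane and bind ubiquinone differed in direction. Sdhc (chr1:170954734-170978172, as the table places it) had 64.9, 62.2 and 59.9 CPM in the PBS and 70.9, 70.8 and 82.9 in the metformin libraries, so that every metformin library was above every PBS library. Its log2 fold change was 0.26 (SE 0.10, edgeR adjusted p = 0.461). Sdhd had 129, 133 and 126 against 116, 114 and 142 CPM, with metformin libraries 1 and 2 below and 3 above the PBS libraries (-0.061, SE 0.11). In TPM the groups did not overlap for either: Sdhc had 77.4, 71.2 and 71.9 TPM in the PBS and 94.1, 92.9 and 83.0 in the metformin libraries, and Sdhd 187, 199 and 192 against 158, 163 and 181. On the log2 of TPM plus 1, limma gave 0.29 for Sdhc (adjusted p = 0.386) and -0.20 for Sdhd (adjusted p = 0.447). Of the 51 tested members, 12 had all metformin libraries above all PBS libraries in TPM, and 5 had them below. The share of all genes without overlap in TPM was not counted, and limma's median over all genes tested was -0.085.

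In complex III the members with an unadjusted edgeR p under 0.05 were the 5 small accessory chains, and their difference from the other chains was not tested. Uqcr11 had 45.8, 45.3 and 41.4 CPM in the PBS and 54.5, 52.0 and 67.4 in the metformin libraries, with no overlap (log2 fold change 0.39, SE 0.12, edgeR adjusted p = 0.38). Uqcr10 had 44.3, 40.4 and 37.9 against 50.6, 48.1 and 64.5 CPM, again without overlap (0.41, SE 0.14, edgeR adjusted p = 0.401). Uqcrb, which lies near the ubiquinone site, had 76.7, 69.8 and 68.3 against 84.7, 83.8 and 113 CPM (0.39, SE 0.14). Metformin library 3 was the highest for each of these, and libraries 1 and 2 lay close to one another above the PBS range. Uqcrq had 48.5, 48.6 and 46.2 against 57.9, 53.9 and 67.3 CPM (0.32, SE 0.11), and Uqcrh, the hinge protein at the cytochrome c docking side, had 0.34 (SE 0.14). None of the 5 has overlapping groups, where 9.49% of all genes had all metformin libraries higher, and 5.29% of all genes, or 18.7% of those with an implied length (explained with the length results) under 500 bases, passed the unadjusted threshold upward.

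None of the nuclear catalytic and core chains of complex III had an unadjusted edgeR p under 0.05. Cyc1, whose haem passes electrons to cytochrome c, had 135, 160.4 and 137 CPM in the PBS and 143, 138 and 166 in the metformin libraries (0.048, SE 0.12). Uqcrfs1, the Rieske iron-sulfur protein, had a log2 fold change of -0.073 (SE 0.13). The core proteins Uqcrc1 and Uqcrc2 build the matrix arm: Uqcrc1 had 316, 339 and 289 against 318, 308 and 337 CPM (0.029, SE 0.10), and Uqcrc2 had 121, 135 and 111 against 124, 117 and 143 CPM (0.069, SE 0.12). For Cyc1, Uqcrc1 and Uqcrc2 the PBS range overlapped the metformin range. Cytochrome c itself, Cycs, the mobile carrier between complexes III and IV, had 109, 105 and 84.0 against 68.2, 88.9 and 98.0 CPM. Metformin library 1 was its lowest and PBS library 1 its highest, and the groups overlapped (-0.23, SE 0.16, edgeR adjusted p = 0.637). In TPM they did not: Cycs had 68.6, 70.9 and 61.9 TPM in the PBS and 43.8, 57.0 and 54.4 in the metformin libraries, and limma on the log2 of TPM plus 1 gave -0.38 (adjusted p = 0.399). Without metformin library 3 the log2 fold change of Cycs was -0.35 (edgeR adjusted p = 0.406).

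Complex IV held most of its higher members among the nuclear chains that surround the catalytic core. Cox6a1 (chr5:115483701-115487040) had 161, 148 and 153 CPM in the PBS and 194, 186 and 240.2 in the metformin libraries, with no overlap (log2 fold change 0.43, SE 0.12, edgeR adjusted p = 0.317). Cox6c had 104, 104 and 99.8 against 132, 120.3 and 165 CPM (0.44, SE 0.13, edgeR adjusted p = 0.34). Cox6b1, which faces the intermembrane space, had 132, 119 and 120.4 against 153, 147 and 189.9 CPM (0.40, SE 0.12, edgeR adjusted p = 0.365). In all 3 metformin library 3 was the highest and no metformin library fell into the PBS range. Cox8a had 189, 169 and 176 against 222, 207 and 280.5 CPM (0.41, SE 0.13). Cox7b had 66.3, 68.4 and 66.6 against 84.4, 76.2 and 104 CPM (0.39, SE 0.13), and Cox7a2 had 83.0, 81.0 and 69.3 against 95.4, 84.0 and 120.0 CPM (0.36, SE 0.15). For these 3 the groups did not overlap either, although Cox7a2 in metformin library 2 was close to PBS library 1.

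Cox4i1, the largest nuclear subunit and a site of regulation by ATP, had 251, 220.4 and 209 CPM in the PBS and 238, 232 and 291 in the metformin libraries, with overlap (0.16, SE 0.12). Cox7a2l, which joins complexes III and IV in supercomplexes, had 69.3, 68.4 and 64.2 against 69.4, 60.9 and 86.8 CPM, also with overlap (0.10, SE 0.14). The forms with few reads were uneven: Cox6b2 had 1.33, 0.534 and 0.527 against 0.525, 0.209 and 0.307 CPM (-1.19, SE 0.65), and Cox6a2 had 1.62, 1.81 and 1.55 against 1.84, 1.84 and 1.62 CPM (0.091, SE 0.33). The metformin range of Cox6b2 ended just under the PBS range, and that of Cox6a2 overlapped it. Cox5b-ps had 1.95, 0.780 and 1.05 against 2.01, 1.63 and 1.93 CPM (0.55, SE 0.44); the table types it as protein-coding and RefSeq as a pseudogene. Reads that it shares with its near-identical parent Cox5b (0.23, SE 0.10) cannot be told apart, and 11 other genes typed as pseudogenes with a member's prefix held 98.7 to 207 reads per library in all.

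Each of the 6 mitochondrially encoded members was highest in metformin library 3. mt-Co1, the catalytic subunit that reduces oxygen, had 1157, 1051 and 1055 CPM in the PBS and 996, 1068 and 1590.4 in the metformin libraries (0.16, SE 0.17). mt-Co2, which takes electrons from cytochrome c, had 227, 199 and 205 against 225, 250.3 and 305 CPM (0.30, SE 0.13, edgeR adjusted p = 0.473), and mt-Co3 had 778, 669 and 629 against 647, 686 and 958 CPM (0.14, SE 0.16). Of the 6, mt-Co2 alone had an unadjusted edgeR p under 0.05. In mt-Co1, mt-Co2 and mt-Co3 the groups overlapped, with metformin library 1 under the highest PBS library. mt-Cytb, the ubiquinol-oxidising chain of complex III, had 652, 603 and 582 against 609.7, 651 and 881 CPM (0.22, SE 0.15). mt-Atp6, the proton channel of complex V, had 491, 389 and 356 against 368, 424 and 564 CPM (0.13, SE 0.18), and mt-Atp8 had 30.9, 21.8 and 19.3 against 24.6, 24.1 and 36.9 CPM (0.25, SE 0.23). For mt-Atp6 and mt-Atp8, PBS library 1 stood above metformin libraries 1 and 2. mt-Atp8 (chrM:7766-7969) and mt-Atp6 (chrM:7927-8607) overlap, so reads in the shared stretch cannot be told apart. The median of the 6 was 0.19, and -0.022 without metformin library 3, the library whose share of mitochondrial reads was highest.

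In the F1 head of complex V, which makes ATP, neither gene passed: Atp5a1 had 683, 736 and 669 CPM in the PBS and 685, 651 and 687 in the metformin libraries (-0.046, SE 0.087, and 0.0028 with upper quartile scaling), and Atp5b, the catalytic subunit, had -0.087 (SE 0.092). In TPM both were lower in every metformin library. Atp5a1 had 432, 471 and 443 TPM against 411, 408 and 385, and Atp5b 1018, 1081 and 937 against 896, 934 and 870. Limma on the log2 of TPM plus 1 gave -0.16 (adjusted p = 0.488) and -0.17 (adjusted p = 0.507). In TPM these were the 2 tested members of complex V below the PBS range, with 6 above it. In the central stalk that turns inside the head, Atp5c1 had 0.048, Atp5d 0.12 and Atp5e 0.42 (SE 0.12, 0.11 and 0.12). Only Atp5e of these 3, whose CPM was 60.2, 54.3 and 52.1 in the PBS and 69.8, 68.1 and 84.8 in the metformin libraries, had an unadjusted edgeR p under 0.05 (adjusted p = 0.34). In the peripheral stalk, which holds the head still, Atp5j had 0.38 (SE 0.12), Atp5h 0.28 (SE 0.13), Atp5pb 0.11 (SE 0.10) and Atp5o 0.022 (SE 0.11).

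All 5 small membrane subunits of complex V, which help ATP synthase form dimers, had an unadjusted edgeR p under 0.05. Atp5j2 (chr5:145120508-145128872) had 74.9, 73.1 and 74.2 CPM in the PBS and 107, 88.9 and 121 in the metformin libraries (log2 fold change 0.51, SE 0.12, edgeR adjusted p = 0.285). Its PBS libraries differed by under 2 CPM and every metformin library lay well above them. Atp5md had 38.7, 36.0 and 39.1 against 48.4, 48.1 and 60.7 CPM (0.47, SE 0.12, edgeR adjusted p = 0.308), and Atp5mpl had 33.8, 27.8 and 29.2 against 39.3, 38.5 and 45.3 CPM (0.44, SE 0.12, edgeR adjusted p = 0.334). Atp5l had 53.2, 48.6 and 47.6 against 61.3, 55.6 and 71.7 CPM (0.34, SE 0.12), and Atp5k had 0.49 (SE 0.17). None of the 5 had overlapping groups (9.49% of all genes, with 5.29% past the unadjusted threshold upward, and 18.7% of those with an implied length under 500 bases). The c ring genes were closer together: Atp5g1 had 70.6, 72.9 and 68.3 against 78.4, 76.4 and 91.2 CPM (0.22, SE 0.10), Atp5g3 147, 131 and 121 against 131, 139.7 and 182 (0.18, SE 0.14), and Atp5g2 14.5, 14.4 and 12.4 against 11.0, 13.8 and 15.6 (-0.033, SE 0.18, and 0.01997 with upper quartile scaling). Among them only Atp5g1 had groups that do not overlap. Atpif1, the inhibitor that keeps ATP synthase from running backwards and is no member by symbol, had 38.1, 28.7 and 34.4 CPM in the PBS and 39.4, 39.4 and 49.7 in the metformin libraries (log2 fold change 0.34, SE 0.15, edgeR adjusted p = 0.478, and 0.0023 with the length trend described below removed).

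Most of the higher genes have short transcripts, so length was taken into account. The deposited Gene Length can exceed the transcript behind the values: it gives 6310 bases for Atp5l, 4715 for Atp5g1 and 3038 for Cox6c. The deposited counts and TPM together imply 300.2, 387 and 270.1 bases of countable transcript for the same genes. This implied length, the median over libraries of count per TPM scaled to single-transcript genes, ran from 32.9 bases for mt-Atp8 to 2756 for Sdha. Its median was 1208 bases in complex II, 589 in III, 376 in IV and 418 in V. Complex II has no member under 500 bases, a length chosen after the values were seen.

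Under 500 bases, 32 members were tested. Of these, 19 (59.4%) were higher at an unadjusted edgeR p under 0.05, and their median log2 fold change was 0.35. Of all 1296 tested genes that short, 18.7% were higher, with a median of 0.40, above that of the short members. These genes are of any type and were not matched to the members on expression, so the 2 shares are not a like comparison. At 500 bases or more, 1 of 19 members was higher, Sdhc, with a median of 0.048. Within complex III the medians were 0.39 and 0.048 for short and long members, within IV 0.34 and 0.16, and within V 0.34 and 0.035. Across members, which share libraries and are not independent, Spearman's rho of log2 fold change with implied length was -0.73 (n = 51), and with Gene Length -0.33; within complexes III, IV and V rho with implied length was -0.88, -0.51 and -0.73 (n = 10, 17 and 19).

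**Figure D3:**
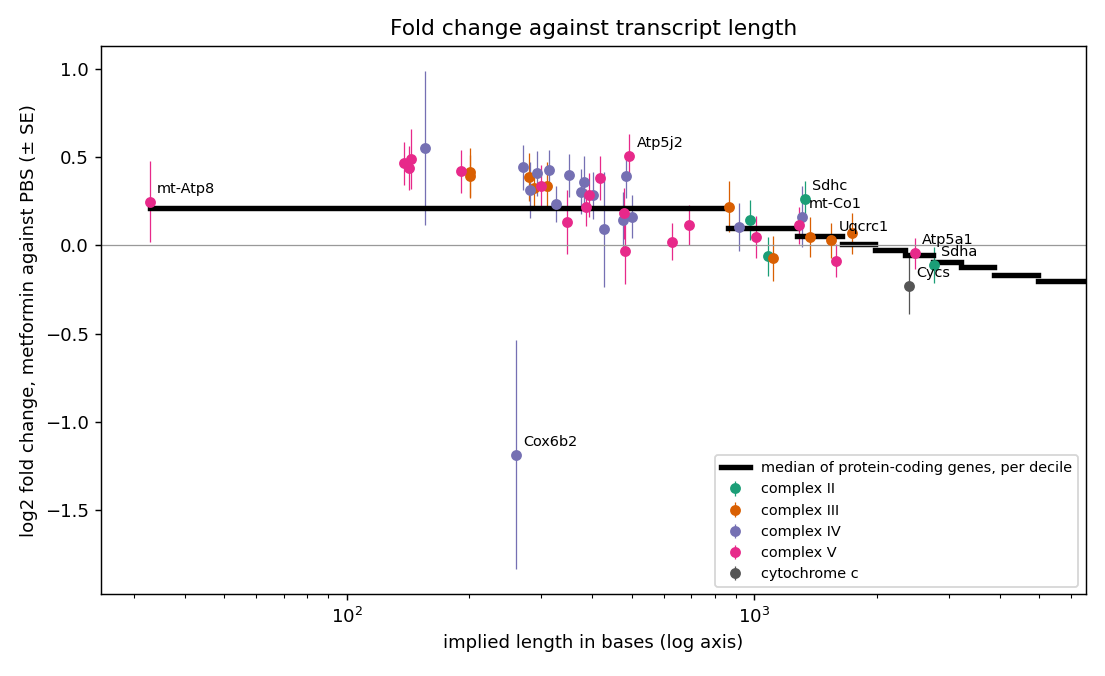
Log2 fold change (metformin against PBS, with SE) of each tested member against implied length in bases (log axis), coloured by complex; black bars are medians of all tested protein-coding genes in deciles of implied length. The bars fall from 0.22 for the shortest decile to -0.20 for the longest, and 30 of the 32 short members lie above 0, with Cox6b2 (-1.19) far below it.

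The same slope ran through the table and differed among libraries of 1 group. Over 15527 genes, rho of log2 fold change with implied length was -0.42. The deviation of each library from the mean of the 6 correlated with implied length at 0.076, 0.32 and 0.39 in PBS libraries 1 to 3, and at -0.072, 0.17 and -0.49 in metformin libraries 1 to 3. Over all genes metformin library 2 thus lay between PBS libraries 1 and 2. The two-sided exact permutation p between the groups was 0.2, where 0.1 is the smallest possible. Over the tested members alone the correlation was 0.29, 0.81 and 0.65 in PBS libraries 1 to 3. In metformin libraries 1 to 3 it was -0.53, -0.53 and -0.61, so that here the groups did not overlap. This separation among members was not tested.

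With the trend on Gene Length removed inside the edgeR fit, the median log2 fold change was -0.057 in complex II, 0.012 in III, 0.024 in IV and 0.033 in V. Then 8 members were higher and 4 lower at an unadjusted p under 0.05, against 4.72% and 5.47% of all genes. With the trend on implied length removed, an alternative chosen after the data were seen, the medians were -0.011, -0.018, 0.0055 and -0.059. In this fit 2 members were higher and 2 lower (5.08% and 5.6% of all genes). Those higher were Atp5j2 (0.26, edgeR adjusted p = 0.314) and Sdhc (0.19, edgeR adjusted p = 0.377). Those lower were Sdhd (-0.17, edgeR adjusted p = 0.414) and Cox6b2 (-1.51, edgeR adjusted p = 0.423), whose level was under 2 CPM.

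**Figure D4:**
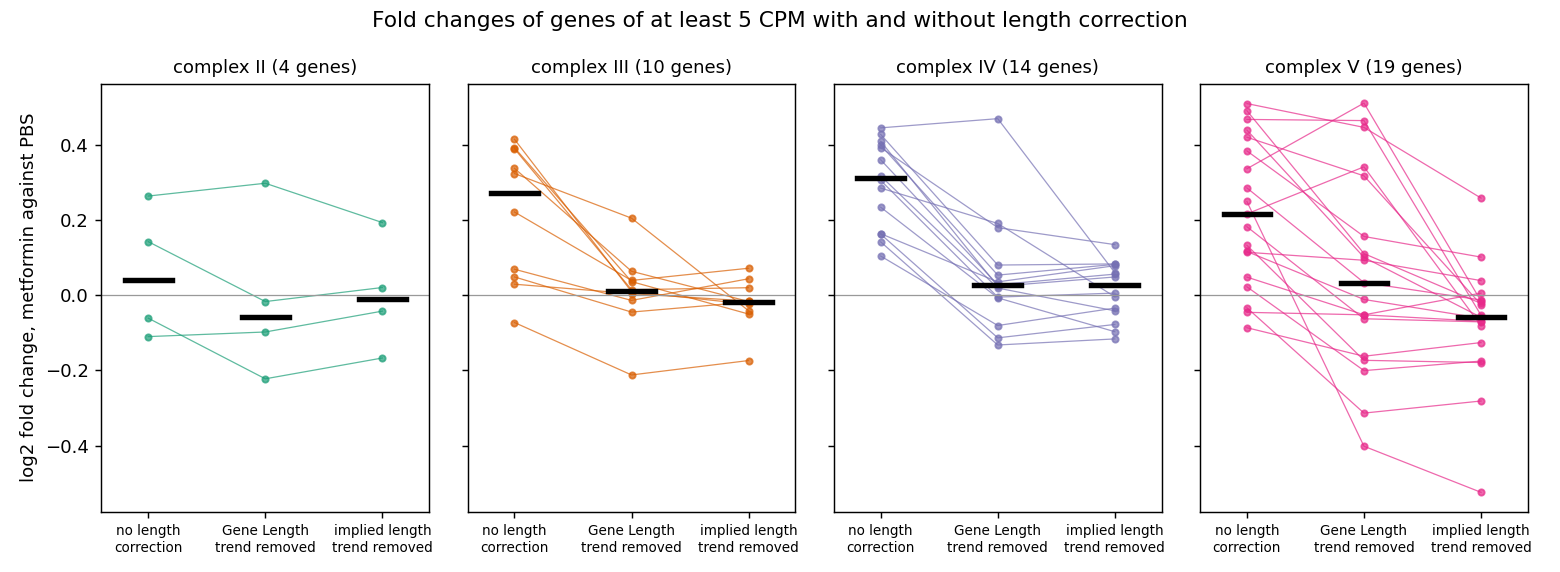
Log2 fold change of each member of at least 5 CPM without length correction, with the Gene Length trend removed and with the implied length trend removed, with black bars for the median of each complex. The bars of complexes III, IV and V stand at 0.27, 0.31 and 0.22 on the left and at -0.018, 0.027 and -0.059 on the right, where Sdhc and Atp5j2 are the highest of their complexes.

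The correction moved the accessory chains to near 0. For the 5 of complex III the median went from 0.39 to -0.024, and for the 5 membrane subunits of complex V from 0.47 to -0.022, while Atp5j2 kept 0.26 of its 0.51. Sdhc, Atp5j2 and Sdhd also passed an unadjusted edgeR p under 0.05 with metformin library 3 left out as well (0.17, 0.25 and -0.20). In that fit 2 members were higher and 5 lower (4.93% and 5.97% of all genes), and the other 4 lower were mt-Atp8 (-0.76), mt-Atp6 (-0.27), mt-Co3 (-0.20) and Uqcrfs1 (-0.22). The value of mt-Atp8 rests on a trend fitted where only 78 of the genes tested have an implied length under 100 bases.

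The deposited TPM, which divide by transcript length, gave a median of 0.086 over the members against -0.085 over all genes tested with limma. A length trend stayed in this fit: genes of implied length under 500 bases had a median of 0.199. In the fit on TPM 7 members were higher and 3 lower at an unadjusted p under 0.05 (3.21% and 7.72% of all genes). Set against tested protein-coding genes of the same decile of Gene Length, members were higher by a median of 0.091 (0.045 with 20 bins, 0.0496 without PBS library 3), and by 0.069 in deciles of implied length. The shortest decile held 31 of the members by Gene Length and 35 by implied length. By implied length it spans 32.9 to 863 bases with a median of 0.22, while genes of any type under 500 bases had 0.40. Members were thus matched on length only coarsely, and the part of length within a decile was not tested. By complex the median difference in deciles of Gene Length was -0.062 in II (4 members), 0.085 in III, 0.12 in IV and 0.091 in V. In deciles of implied length it was 0.013, 0.115, 0.10 and 0.034. Without metformin library 3 the difference of complex II in deciles of Gene Length was -0.00025. A set for complex I, which stands before these complexes, was taken by symbols starting with Ndufa, Ndufb, Ndufc, Ndufs, Ndufv or mt-Nd. This choice also takes in assembly factors named Ndufaf, and Ndufa4, which sits in complex IV. Its 53 tested genes had a median of 0.28 without correction. Of these, 16 were higher and 0 lower at an unadjusted edgeR p under 0.05 (5.29% and 5.08% of all genes). With the implied length trend removed the median was 0.0023, with 1 higher and 0 lower (5.08% and 5.6% of all genes).

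Genes that build or serve these complexes were read from 8 lists, of which 77 of 80 symbols were in the table and 72 were tested. Of the 72, 9 (12.5%) were higher and 3 (4.17%) lower at an unadjusted edgeR p under 0.05, against 5.29% and 5.08% of all genes, and 2 and 2 with the implied length trend removed. None passed an adjusted p of 0.05, as in the whole table, and their median log2 fold change was 0.095, or -0.005 with the implied length trend removed. The assembly factors of complex IV had 5 higher and 0 lower of 23, led by the copper chaperone Cox17 (46.5 ± 1.42 CPM in the PBS and 61.9 ± 8.01 in the metformin libraries, SD, n = 3; log2 fold change 0.41) and by Pet100 (11.9 ± 1.16 and 17.7 ± 2.71 CPM; 0.57). Both are short, and with the implied length trend removed they stood at 0.012 and 0.18. In complex II, 1 of 4 assembly factors was higher, Sdhaf4 (0.44, or 0.16 with the trend removed), which prepares Sdha for assembly, beside Sdhaf1 (0.29 and 0.34). In complex III, 1 of 6 was higher, Uqcc2 (0.33, or -0.071 with the trend removed), beside Uqcc3 (0.35 and 0.14). Of the 7 factors for complex V, 0 passed, with 0.35 for Fmc1 (-0.067 with the trend removed) and 0.39 for Atpsckmt (0.29).

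Carriers and regulators were mixed. Slc25a4, an ADP/ATP exchanger of the inner membrane, had 60.6 ± 4.37 CPM in the PBS and 47.5 ± 7.9 in the metformin libraries (SD, n = 3; log2 fold change -0.35, edgeR adjusted p = 0.461), and -0.38 with the implied length trend removed. The phosphate carrier Slc25a3 had 0.078. Among 18 regulators of mitochondrial biogenesis 1 (5.56%, near the share of all genes) was higher, Slirp (0.42), which stabilises mitochondrial transcripts, and 1 lower, Pprc1 (54.1 ± 7.64 and 36.6 ± 10.2 CPM; -0.56), a coactivator related to PGC-1. With the implied length trend removed Slirp stood at 0.21 and no longer passed, and Pprc1 at -0.41. Ndufa4, which sits in complex IV, had 0.29 and Higd1a, a supercomplex factor, 0.27, and with the trend removed -0.059 and 0.06032. Of the 7 genes for dissipation or bypass, Ucp2 was higher (0.27) and Gpd2, the glycerol phosphate dehydrogenase that feeds ubiquinone, lower (-0.21). That is 14.3% in each direction, against 5.29% and 5.08% of all genes. With the implied length trend removed Ucp2 stood at 0.19 and Gpd2 at -0.093, and Gpd2 no longer passed. In that fit the list had 1 higher and 0 lower (5.08% and 5.6% of all genes).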

How the data were processed

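RNA of liver NK cells was sequenced in 3 libraries of the PBS group and 3 of the metformin group. Per the labels' protocols, RNA was purified with a column kit and turned into libraries by SMART-seq mRNA. The submitters' processing notes name DRAGEN, GRCm39 and mm10, without roles. The deposited table holds, per gene and library, an unnormalized estimated count that need not be whole and a TPM value that the authors scaled per transcript length to the same total in each library. Strand use and the assignment of shared reads are not given in the sources used here. Coordinates are the table's own. Of its columns of values, 0 were left without a sample.

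Estimated counts were rounded and tested with edgeR 4.0.16 in R 4.3.3 (TMM factors, filterByExpr, glmQLFit and glmQLFTest, no covariate) on the whole table, with Benjamini-Hochberg adjustment and a threshold of 0.05. CPM use TMM-scaled library sizes. Length trends were removed as lowess offsets (span 0.3) per library. TPM were tested with limma 3.58.1 on log2(TPM + 1), a scale that understates changes of low genes. Implied length used single-transcript genes of at least 2000 bases and 100 reads as its scale, and values of at least 5 reads. The edgeR fit and the length offset were tested on simulated data.

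Other settings were DESeq2 1.42.0, limma-voom, 3 other scalings, a filter of 5 CPM in 3 libraries or none, removal of mitochondrial genes before fitting, the replicate block and each library left out. The members and all lists were chosen with earlier results of these data known. Values in each library are given for complex II, Cyc1, Cycs, mitochondrial members, tissue forms, the 3 smallest p and 2 highest TPM per complex, the longest and shortest members, and means for up to 2 genes per related list. Other members named, among them Uqcrc2, Uqcrh, Uqcrfs1, Atp5a1, Atp5b, Atp5e and the stalk subunits, were added to describe the roles within a complex after their values were seen. Uqcc4, Uqcc5 and Uqcc6 were not matched and were not analysed here.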

Additional observations from a re-analysis of the deposited data

How the results depend on the processing

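At an adjusted p of 0.05, edgeR called 0 members under each of its alternatives, as did limma-voom and limma on TPM, and DESeq2 called 2. Against 20 members higher and 0 lower at an unadjusted p under 0.05, the counts were 8 and 4 with the Gene Length trend removed, 7 and 3 with the deposited TPM, 2 and 2 with the implied length trend removed, and 2 and 5 with metformin library 3 left out as well; the other normalizations and filters gave 20 to 22 higher, and 19 when mitochondrially encoded genes were left out of the fit, which leaves out mt-Co2. Leaving out 1 library at a time gave 10 to 22 higher, 0 to 2 lower and a median for complex V of 0.045 to 0.27. Removing the Gene Length trend gave medians of 0.014 over all members, 0.012 in complex III, 0.024 in IV and 0.033 in V, and removing the implied length trend -0.024, -0.018, 0.0055 and -0.059. With metformin library 3 left out as well these were -0.063, -0.0597, -0.035 and -0.092. The deposited TPM gave -0.11 in complex II, 0.092 in III and 0.12 in IV. The cause of these shifts was not tested beyond the trends that the settings remove.

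Of 960 values of the 51 tested members under the alternatives, 107 changed sign, over 38 of the 51. With the Gene Length trend removed these were Atp5c1 -0.0522, Atp5d -0.0114, Atp5g3 -0.0627, Atp5o -0.20, Cox4i1 -0.11, Cox5b -0.00711, Cox6a2 -0.21, Cox7a2l -0.0807, Cyc1 -0.0449, Sdhb -0.01702, Uqcrc2 -0.01396, mt-Atp6 -0.17, mt-Atp8 -0.40, mt-Co2 -0.00514 and mt-Co3 -0.13. With the implied length trend removed they were Atp5a1 0.00545, Atp5c1 -0.0692, Atp5d -0.0614, Atp5e -0.02504, Atp5g1 -0.0812, Atp5g3 -0.071, Atp5h -0.0128, Atp5k -0.02195, Atp5l -0.0157, Atp5md -0.0533, Atp5mpl -0.0589, Atp5o -0.18, Cox4i1 -0.0779, Cox5a -0.00415, Cox5b -0.10, Cox6a2 -0.17, Cox7a2l -0.0344, Cox7c -0.0416, Cyc1 -0.0183, Uqcr10 -0.02405, Uqcr11 -0.0502, Uqcrc1 -0.0157, Uqcrh -0.0168, Uqcrq -0.0414, mt-Atp6 -0.18, mt-Atp8 -0.52 and mt-Co3 -0.12. With metformin library 3 left out as well they were Atp5c1 -0.10, Atp5d -0.0335, Atp5e -0.0746, Atp5g1 -0.0759, Atp5g3 -0.12, Atp5h -0.0594, Atp5k -0.14, Atp5l -0.0448, Atp5md -0.13, Atp5mpl -0.0919, Atp5o -0.16, Cox4i1 -0.0883, Cox5a -0.0447, Cox5b -0.10, Cox6a2 -0.0353, Cox6c -0.00722, Cox7a2 -0.00357, Cox7a2l -0.0943, Cox7c -0.13, Cox8a -0.0142, Cyc1 -0.0454, Uqcr10 -0.10, Uqcr11 -0.11, Uqcrb -0.0565, Uqcrc1 -0.00607, Uqcrc2 -0.00727, Uqcrh -0.0737, Uqcrq -0.06297, mt-Atp6 -0.27, mt-Atp8 -0.76, mt-Co1 -0.0869, mt-Co2 -0.0308, mt-Co3 -0.20 and mt-Cytb -0.00984. In the deposited TPM they were Atp5c1 -0.10, Atp5d -0.0597, Atp5g3 -0.0108, Atp5o -0.15, Atp5pb -0.01098, Cox4i1 -0.0238, Cox6a2 -0.10, Cox7a2l -0.0578, Cyc1 -0.0476, Sdhb -0.009995, Uqcrc1 -0.11, Uqcrc2 -0.0357 and mt-Co3 -0.0387, and with upper quartile factors Atp5a1 0.00285 and Atp5g2 0.01997. Ranges over libraries left out that crossed 0 were Atp5c1 -0.0738 to 0.10, Atp5g2 -0.16 to 0.0868, Atp5o -0.0605 to 0.0726, Cox7a2l -0.0539 to 0.21, Cyc1 -0.04398 to 0.13, Uqcrc1 -0.0339 to 0.0858, Uqcrc2 -0.0233 to 0.15, mt-Atp6 -0.0639 to 0.27, mt-Co1 -0.0823 to 0.28 and mt-Co3 -0.0609 to 0.24.

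With the replicate number as a replicate block, 16 members were higher and 0 lower (4.87% and 5.02% of all genes), and the median over all members was 0.23. Deviations of same-numbered libraries correlated at 0.17, 0.076 and 0.17, so the numbers were not taken to pair the samples. Depth limits Cox6b2, Cox6a2 and Cox5b-ps, at about 2 CPM or less, more than the other members tested.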
